A study of Mus musculus with 21 samples.

Results

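Tuft cells of the colon were compared with tuft cells of the small intestine, gene by gene, in poly(A) RNA sequencing libraries from mice. Of the 21 libraries of the study, which sorted tuft cells from 5 tissues, the 7 with these labels were taken: 4 of colon tuft cells (replicates 1 to 4) and 3 of small intestine tuft cells (replicates 2 to 4). A further 3 libraries of reporter-negative small intestine epithelium (called non-tuft below) gave the level of each gene in the neighbouring cells of 1 of the organs; colon non-tuft cells were not analysed here. All 10 libraries came from naive male mice of the strain labelled C57BL6.Il25(Flare25/Flare25), 12 weeks old, with 1 mouse to a library. Every mouse carried the Flare25 reporter in both copies of Il25, so no group without it was compared. Colon and small intestine epithelium was released with the same EDTA solution. Cells negative for DAPI and CD45 and positive for EPCAM and the reporter were sorted as tuft cells, and those negative for the reporter as non-tuft cells. The labels do not say which stretch of either organ was taken. The series description states that a 4th small intestine tuft replicate and a 4th non-tuft replicate were discarded for failed quality control.

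Tuft cells are a rare epithelial cell type with a brush of long microvilli that sense luminal chemicals through taste-like signalling. A G protein-coupled receptor activates phospholipase C beta, calcium is released from stores through inositol trisphosphate receptors, and the cation channel TRPM5 depolarises the cell. They are known as the gut's source of interleukin 25, and they make leukotrienes, prostaglandins and acetylcholine. Small intestine tuft cells are known to sense succinate of protists and bacteria through the receptor SUCNR1, and the transcription factor POU2F3 is needed for tuft cells to form in all these tissues.

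Total gene counts ran from 44913559 to 62268881 over the 7 libraries. Levels below are CPM, counts brought to a shared library total by TMM (a scaling that lines up the bulk of genes between libraries). From 13500 to 16000 cells were sorted for a colon library and 35000 to 36000 for a small intestine library. The mean correlation of log2 CPM was 0.912 between colon replicates, 0.944 between small intestine replicates and 0.787 between the organs. Mitochondrial transcripts took 17.7 to 23% of colon counts and 24.1 to 33.5% of small intestine counts. Libraries within each organ differed in a few traits that touch results below. Of the 15 genes named below for the largest decreases, colon library 4 had the lowest colon level in 13, and of the 15 named for the largest increases, small intestine library 2 had the highest small intestine level in 14. The airway secretory genes Scgb1a1 and Bpifa1 were between 0.459 and 1.16 CPM in the 4 colon libraries. They were at 62 and 76.1 CPM in small intestine library 2, at 31.1 and 32.1 CPM in library 3, and at 0.224 and 0.313 CPM in library 4. The reporter gene Il25 was at 7.57, 3.23, 13.4 and 9.53 CPM in colon tuft libraries 1 to 4 and at 22.8, 24.6 and 20.3 CPM in small intestine tuft libraries 2 to 4. Il25 was the gene sorted on, so its level says only how much reporter transcript the sorted cells held.

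Of 15700 genes tested, 2118 were higher and 1769 lower in colon tuft cells when a change of 2-fold or more with an adjusted p below 0.05 was required (edgeR quasi-likelihood test, Benjamini-Hochberg adjustment over all genes tested). That is 13.5% higher and 11.3% lower, the background against which the counts of each gene list below are to be read. The libraries of both organs did not overlap, with colon above, in 21.4% of genes tested, and with colon below in 21.1%. The median log2 ratio of all genes tested was 0.05. The same contrast was also taken from a fit of all 18 tuft libraries, whose spread also drew on the gall bladder, thymus and trachea libraries. There, 885 genes were higher and 775 lower of 19850 tested, and the cause of the lower counts was not tested. Among genes named below, that fit lost the calls of Il25, Chat, Plcb2, Gnat3, Hmx2, Hmx3, Atoh1, Gnai2, Ptger4, Ffar4, Gpr35, Adra2a, P2ry2, Fyn, Lcp2, St6galnac6, Mgam, Slc51b, Nr1h4, Slc10a2, Fabp6, Reg3b, B3gnt6, Muc2, Cldn2, Ccl28, Tslp, Cd74, Tff3, Zg16, Fcgbp, Gcg, Insl5, Mki67 and Lrig1, with the direction kept in each. The 15 genes named for the largest increases included genes of colonic transport, mucosal defence and posterior position. Others, such as Arhgap20 and Thbs4, belong to none of these. The 15 named for the largest decreases included genes of digestion, lipid export and drug metabolism, with the kinase gene Prkcb at their head.

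**Figure D1:**
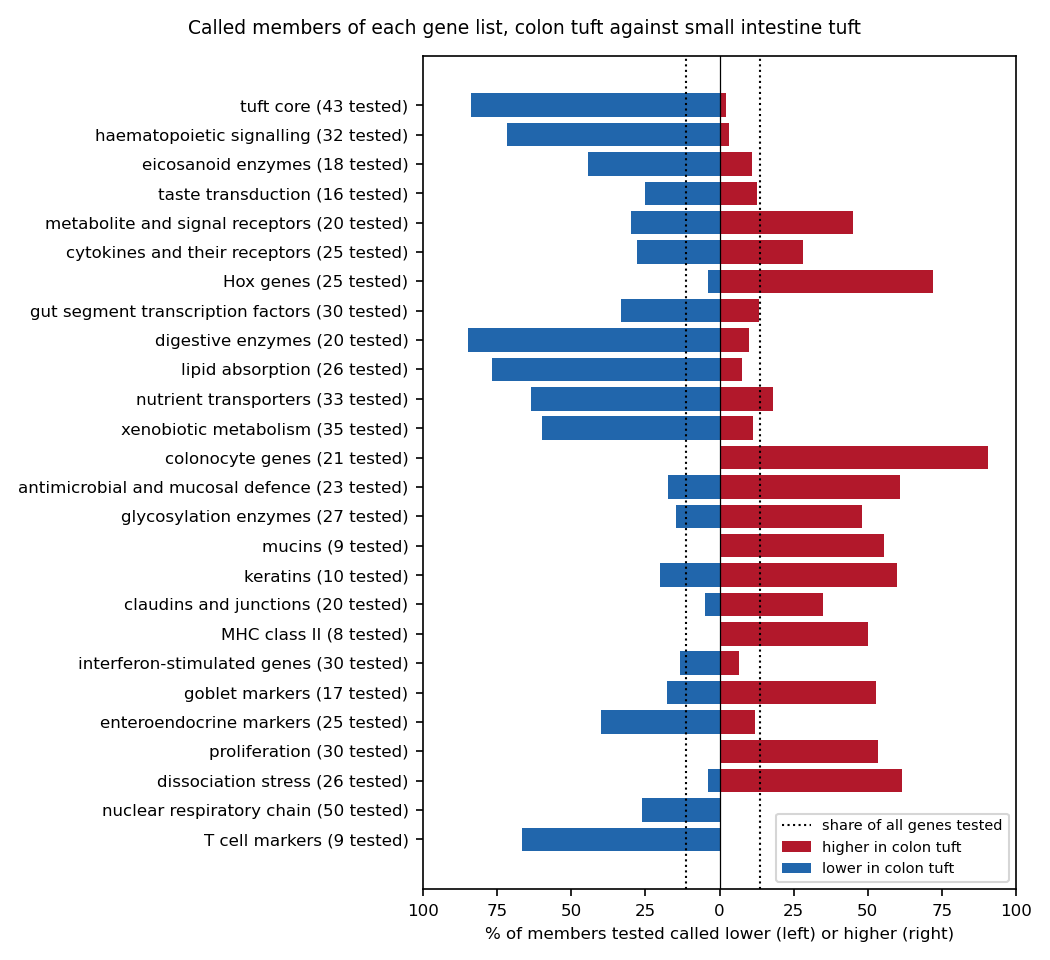
Percent of tested members of each gene list that were called lower (bars to the left) or higher (bars to the right) in colon tuft cells than in small intestine tuft cells; dotted lines mark the shares of all genes tested, 13.5% higher and 11.3% lower. Digestive, lipid and tuft core lists lie mostly on the left, and colonocyte, Hox and defence lists mostly on the right.

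The cells of both organs carried the tuft programme, at a lower level in the colon. Pou2f3 (ENSMUSG00000032015, GRCm38 chromosome 9, 43123939 to 43210369) was at 171, 192, 155 and 151 CPM in colon tuft libraries and at 586, 673 and 502 CPM in small intestine tuft libraries, against 11.1 ± 1.63 CPM in non-tuft cells (SD, n = 3). Every colon tuft library lay below every small intestine tuft library and above every non-tuft library. Trpm5 (ENSMUSG00000009246, chromosome 7, 143069153 to 143094642) was at 1022, 975, 942 and 1330 CPM in colon tuft, at 5051, 4493 and 3823 CPM in small intestine tuft and at 38.4 CPM on average in non-tuft cells. Dclk1, a microtubule-associated kinase used as a tuft marker (ENSMUSG00000027797, chromosome 3, 55242364 to 55539068), was at 719, 825, 693 and 945 CPM in colon tuft, against 2455, 2032 and 2049 CPM in small intestine tuft. The log2 ratios were -1.81 ± 0.15 (SE) for Pou2f3, -2.06 ± 0.16 for Trpm5 and -1.45 ± 0.15 for Dclk1, with edgeR adjusted p of 5.37e-06, 3.37e-06 and 2.46e-05.

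Of 43 tuft core genes tested, 36 fell, Il25 among them, and 1 rose in colon tuft cells, and their median log2 ratio was -2.03. Their summed level was 9651 to 12347 CPM in colon tuft libraries, 41551 to 52300 CPM in small intestine tuft libraries and 551 to 803 CPM in non-tuft libraries. In bulk libraries, fewer cells of a type and less RNA per cell cannot be told apart. More goblet, colonocyte and proliferation genes were called higher than lower in the colon libraries. More enteroendocrine and Paneth markers were called lower than higher. Their counts are given further on, and the part of other cells in these decreases was not tested. The members did not fall by an equal amount. Kctd12, an auxiliary subunit of GABA-B receptors, and Nrgn, a calmodulin-binding protein, had log2 ratios of -3.26 and -3.22. Chat, the enzyme that makes acetylcholine, fell by 1.18 on the log2 scale, and Plcb2, the phospholipase of taste signalling, by 1.01, a value at the fold threshold that missed it without colon library 1 (-0.94), 2 or 3 (-0.92) or small intestine library 3 (-0.94). The decrease of Il25 missed the threshold without small intestine library 2 (edgeR adjusted p = 0.0562) or 3 (0.07). At the other end, Nebl, an actin-binding protein, was at 101, 131, 124 and 131 CPM in colon tuft and at 131, 134 and 157 CPM in small intestine tuft, against 2.49 CPM in non-tuft cells, and its log2 ratio of -0.21 ± 0.15 did not pass. Ptprc, which encodes CD45, the antigen used to gate out blood cells, was at 71.7 to 109 CPM in colon tuft and 115 to 149 CPM in small intestine tuft (log2 ratio -0.50 ± 0.18, edgeR adjusted p = 0.0537).

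**Figure D2:**
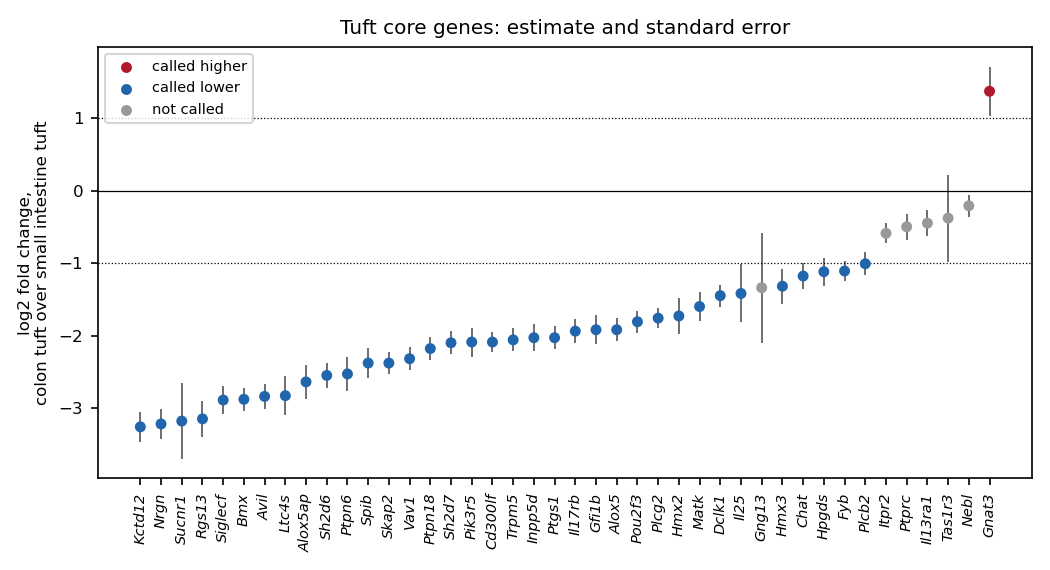
Log2 ratio of colon over small intestine tuft cells for 42 of the 43 tuft core genes tested, with bars of 1 standard error; dotted lines mark a 2-fold change. Among the 42 drawn, estimates run from -3.26 for Kctd12 to 1.37 for Gnat3, the 1 member called higher.

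Among 14 transcription factors known from tuft cells or their precursors, 6 fell and 2 rose. The 6 that fell were Spib, Gfi1b, Pou2f3, Hmx2, Hmx3 and Runx1, with log2 ratios from -2.38 for Spib to -1.14 for Runx1. Myb and Atoh1 rose. Atoh1, which directs progenitors to the secretory lineages, was at 25.7, 27.8, 11.1 and 14.5 CPM in colon tuft, against 3.72, 4.26 and 4.38 CPM in small intestine tuft, and at 129 CPM in non-tuft cells (log2 ratio 2.26 ± 0.38, edgeR adjusted p = 0.000997). Sox9 and Nfatc1 did not pass, with log2 ratios of -0.71 and -0.43.

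The taste-like cascade held both the core gene that rose and genes that fell. Gnat3, which encodes the taste G protein gustducin (ENSMUSG00000028777, chromosome 5, 17962549 to 18019834), was at 59.4, 101, 84.5 and 94.5 CPM in colon tuft and at 51.2, 30.7 and 16.8 CPM in small intestine tuft, against 3.39 CPM in non-tuft cells. The groups did not overlap, and the log2 ratio was 1.37 ± 0.34 (edgeR adjusted p = 0.00894). Gna14, a G protein alpha subunit of the Gq class (ENSMUSG00000024697, chromosome 19, 16435762 to 16610820), was at 22.1, 19.3, 20.5 and 21 CPM in colon tuft, at 0.124, 0.16 and 0.0447 CPM in small intestine tuft and at 0.365 CPM in non-tuft cells. It was thus counted at a steady level in every colon library and near the limit of detection in the small intestine (log2 ratio 7.53 ± 0.47, edgeR adjusted p = 7.17e-07). Rgs13, a regulator that switches off G protein signalling, was at 75, 102, 69.4 and 69 CPM in colon tuft, against 1006, 485 and 613 CPM in small intestine tuft (log2 ratio -3.15 ± 0.25). In all, 4 of 16 taste transduction genes tested fell (Rgs13, Trpm5, Gnai2 and Plcb2) and Gnat3 and Gna14 rose. The calcium release channel genes Itpr2 and Itpr3 did not pass, nor did the taste receptor gene Tas1r3, at 1.38 to 9.69 CPM in colon tuft and 4.07 to 11 CPM in small intestine tuft.

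Receptors for metabolites and signals went both ways. Of 20 tested, 9 were higher and 6 lower, with a median log2 ratio of 0.84. With all 18 tuft libraries in the fit, 2 were higher. Sucnr1 (ENSMUSG00000027762, chromosome 3, 60081869 to 60087566) was at 1.09, 2.71, 1.07 and 4.84 CPM in colon tuft, at 21.7, 18.1 and 26.4 CPM in small intestine tuft and at 0.52 ± 0.289 CPM in non-tuft cells (SD, n = 3). All 4 colon libraries lay below the 3 small intestine libraries (log2 ratio -3.18 ± 0.52, edgeR adjusted p = 0.000816), and the colon group mean of 2.43 CPM was above the non-tuft mean. The promoters of Sucnr1 and of Prkcb, described below, are shown because both genes fell in colon tuft cells and both windows hold the octamer ATGCAAAT, the classic binding motif of POU transcription factors, the family of Pou2f3. Each window runs from 250 bases before to 50 bases after the transcription start (RefSeq, build GRCm38.p6), and the octamer is in capitals.
Sucnr1, chr3:60081619-60081918, plus strand: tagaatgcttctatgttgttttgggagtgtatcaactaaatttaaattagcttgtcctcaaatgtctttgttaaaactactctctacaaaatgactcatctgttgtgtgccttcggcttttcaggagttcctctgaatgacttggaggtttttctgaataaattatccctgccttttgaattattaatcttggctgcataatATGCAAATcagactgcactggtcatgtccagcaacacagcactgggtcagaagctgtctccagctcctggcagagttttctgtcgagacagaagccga
Prkcb, chr7:122288875-122289174, plus strand: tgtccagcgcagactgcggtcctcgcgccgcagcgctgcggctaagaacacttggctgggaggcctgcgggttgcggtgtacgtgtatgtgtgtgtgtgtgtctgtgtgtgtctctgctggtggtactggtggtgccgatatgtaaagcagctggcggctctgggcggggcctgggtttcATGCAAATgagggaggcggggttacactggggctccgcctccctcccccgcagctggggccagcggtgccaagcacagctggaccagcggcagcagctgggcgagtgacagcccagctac
The octamer begins 48 bases before the start of Sucnr1 and 70 bases before the start of Prkcb. Searched on both strands, it stood in 1.75% of 27025 promoter windows, in 1.52% of those of genes tested, in 2.08% of those of genes called higher and in 2.35% of those of genes called lower. Among tuft core genes, 3 of 39 windows held it (Hpgds, Kctd12 and Sucnr1). So did 2 of 30 windows of blood cell signalling genes, that of Prkcb among them. It stood in 0 of 16 windows of digestive enzyme genes and in 0 of 20 of lipid absorption genes. A match describes the letters in the window and does not show binding.

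Other receptors that fell included Ffar3, which senses short-chain fatty acids, at 99.1, 128, 107 and 232 CPM in colon tuft, against 564, 617 and 548 CPM in small intestine tuft (log2 ratio -2.03 ± 0.26). Vmn2r26, a receptor of the vomeronasal type, was at 0.0206 to 0.331 CPM in colon tuft and 3.82 to 8.45 CPM in small intestine tuft (log2 ratio -4.94 ± 0.80), and at 0.284 CPM in non-tuft cells. Casr, the calcium-sensing receptor, and Il17rb, the receptor of interleukin 25, also fell. Of the 9 that rose, Ptger4, a prostaglandin E2 receptor, a gene that small intestine non-tuft cells held at 72.9 CPM, was at 79.6, 81.6, 42 and 81.5 CPM in colon tuft, against 11.6, 13.9 and 10.7 CPM in small intestine tuft (log2 ratio 2.56 ± 0.27). Ffar4, a receptor of long-chain fatty acids, was at 4.87, 4.75, 11.6 and 8.66 CPM in colon tuft, against 0.0413, 0.32 and 0.0224 CPM in small intestine tuft (log2 ratio 5.85 ± 0.92). Hcar2, which binds butyrate, ketone bodies and niacin, was at 2.14 to 4.13 CPM in colon tuft and at 0 to 0.268 CPM in small intestine tuft. Gpr35, Adra2a and P2ry2 rose by 1.56 to 2.05 on the log2 scale, while the short-chain fatty acid receptor Ffar2 was at 2.39 to 6.21 CPM in colon tuft and 1.44 to 3.57 CPM in small intestine tuft and did not pass.

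Eicosanoid genes were lower along the leukotriene and prostaglandin D2 routes. Of 18 tested, 8 fell and 2 rose, with a median log2 ratio of -0.72. Alox5, the lipoxygenase that begins leukotriene synthesis, was at 189, 235, 240 and 286 CPM in colon tuft and at 976, 821 and 900 CPM in small intestine tuft (log2 ratio -1.92 ± 0.16). Ltc4s, which makes leukotriene C4, was at 9.53, 16.7, 18.3 and 24.1 CPM in colon tuft, against 123, 110 and 135 CPM in small intestine tuft (log2 ratio -2.83 ± 0.27). The activating protein gene Alox5ap and the cyclooxygenase genes Ptgs1 and Ptgs2 fell by 2.64, 2.03 and 2.84 on the log2 scale. Hpgds, the prostaglandin D synthase, fell by 1.12, or by 0.90 without small intestine library 2, which is under the fold threshold. The 2 genes that rose encode ABC transporters of leukotriene and prostaglandin export: Abcc1 was at 60.4 to 80.9 CPM in colon tuft and 17 to 20.9 CPM in small intestine tuft, and Abcc4 at 8.15 to 25.4 CPM in colon tuft and 0.137 to 0.806 CPM in small intestine tuft. Without small intestine library 2, 5 of the 18 fell.

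Genes of signalling known from blood cells, many of which tuft cells express, were lower in 23 and higher in 1 of 32 tested, with a median log2 ratio of -2.13. Prkcb, a protein kinase C of lymphocyte and neuronal signalling (ENSMUSG00000052889, chromosome 7, 122288751 to 122634402), had the largest decrease of all genes ranked. Only genes that averaged 20 CPM or more in the higher group were ranked. Prkcb was at 0, 0.0997, 0.0165 and 0.0906 CPM in colon tuft, which is 11 reads in 4 libraries, and at 22.9, 24.1 and 24.3 CPM in small intestine tuft. Non-tuft cells had 0.244 ± 0.336 CPM (SD, n = 3). The log2 ratio was -8.78 ± 0.64 (edgeR adjusted p = 2.16e-06). Was, an actin regulator of blood cells, was at 0.0412 to 1.02 CPM in colon tuft, against 12.8 to 16.9 CPM in small intestine tuft. Rac2, a small GTPase of blood cells, was at 128, 181, 99.5 and 183 CPM in colon tuft and at 1731, 1282 and 1195 CPM in small intestine tuft (log2 ratio -3.25 ± 0.23). Lyn and Ptpn6 fell by 1.95 and 2.53 on the log2 scale, and Pik3cg was at 161 to 221 CPM in colon tuft and 278 to 362 CPM in small intestine tuft without passing the fold threshold. Fyn, a Src family kinase, was the 1 member that rose, at 8.7, 9.95, 11.8 and 7.45 CPM in colon tuft, against 0.455, 1.49 and 3 CPM in small intestine tuft (log2 ratio 2.53 ± 0.60, edgeR adjusted p = 0.00724). A 2nd member rose without colon library 1 or 4 or small intestine library 4.

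T cell markers moved the same way as this list. Of 9 tested, 6 were lower in the colon and 0 higher, and their summed level was 3.73 to 8.25 CPM in colon tuft libraries, 59.2 to 73.2 CPM in small intestine tuft libraries and 8.13 to 15.7 CPM in non-tuft libraries. Cd3e, a chain of the T cell receptor complex, was at 0.0199 to 0.543 CPM in colon tuft and at 7.83 to 13.7 CPM in small intestine tuft, and the granzyme gene Gzma at 0 to 0.206 CPM in colon tuft and 12.9 to 24.8 CPM in small intestine tuft. Of 10 myeloid markers, 3 were lower and 1, Cd14, higher. Without colon library 1, 5 myeloid markers were lower. The part of such cells in the level of Prkcb, Was, Lcp2 or Rac2 was not tested.

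Prkcb was not alone among genes that were high in small intestine tuft libraries, near absent from small intestine non-tuft libraries and low in the colon. The same small intestine tuft libraries held the T cell marker reads given above. The part of such cells in this class of genes was not tested. Of 1100 genes called lower that averaged 20 CPM or more in small intestine tuft, 178 (16.2%) had a non-tuft level under 10% of the tuft level. Those 178 were counted without a limit on the colon level, so genes still well counted in the colon, such as Trpm5 and Pou2f3, are among them. The matching share over all genes tested was not taken, here or for the genes called higher. The examples that follow, and the 10% limit, were chosen after their values were seen. Cnih3, an auxiliary subunit of AMPA receptors (ENSMUSG00000026514, chromosome 1, 181352628 to 181460641), was at 0.206, 0, 0 and 0 CPM in colon tuft, at 21.4, 28.4 and 15.4 CPM in small intestine tuft and at 0.126 CPM in non-tuft cells (log2 ratio -8.75 ± 1.00, edgeR adjusted p = 5.58e-05). Its 10 reads in the colon all came from library 1. Dnah6, a dynein heavy chain of axonemes, was at 0.68 to 1.07 CPM in colon tuft and at 135 to 207 CPM in small intestine tuft. Gprc5c, an orphan receptor, was at 10.2, 14.1, 6.59 and 7.39 CPM in colon tuft, at 575, 578 and 488 CPM in small intestine tuft and at 8.48 CPM in non-tuft cells. For each of these 3 genes, every colon tuft library lay nearer to the non-tuft mean than to the small intestine tuft mean. That follows from picking them by a large decrease and a low non-tuft level. Atp2b2, a calcium pump of the plasma membrane, Plek, a protein kinase C substrate, Slc4a8, a bicarbonate transporter, and Car7, a carbonic anhydrase, had log2 ratios of -6.85, -6.01, -4.31 and -4.84.

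Of 1071 genes called higher that averaged 20 CPM or more in colon tuft, 138 (12.9%) had a small intestine non-tuft level under 10% of the colon tuft level; their level in the rest of the colon epithelium was not tested. Gnat3, at 85 CPM in colon tuft, is 1 such gene, and St6galnac6, a sialyltransferase, is another, at 293, 405, 403 and 499 CPM in colon tuft, at 118, 116 and 121 CPM in small intestine tuft and at 3.71 CPM in non-tuft cells. St6galnac6 was thus a tuft gene in the small intestine and higher still in colon tuft cells (log2 ratio 1.76 ± 0.18, edgeR adjusted p = 2.83e-05).

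**Figure D3:**
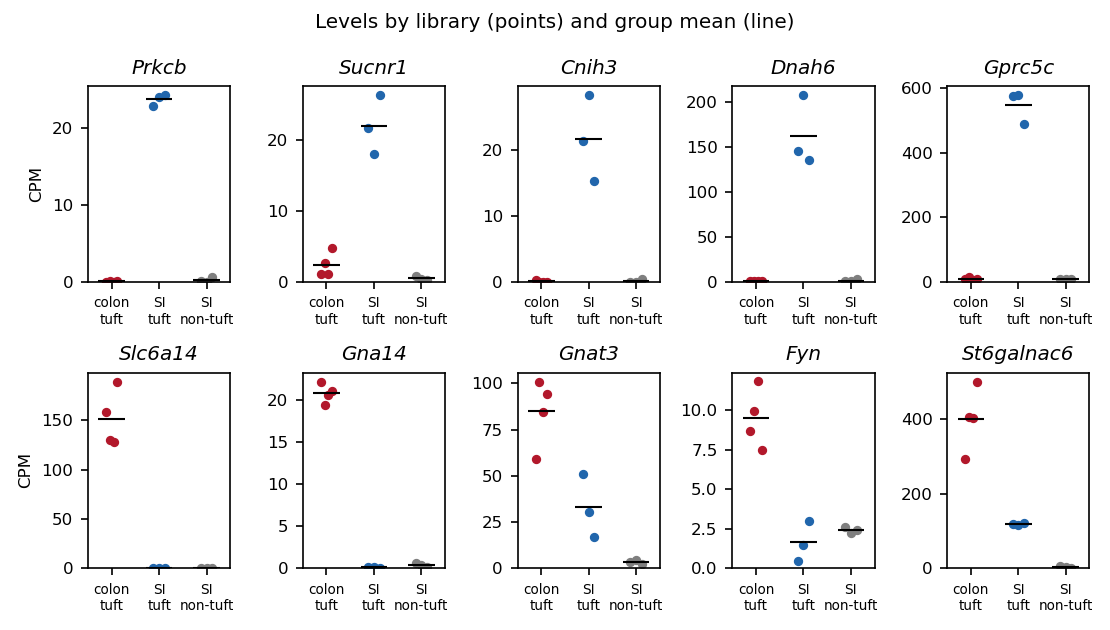
CPM of 10 genes in colon tuft (4 libraries), small intestine tuft (3) and small intestine non-tuft cells (3), with points for libraries, lines for group means and an axis of its own for each gene. The upper row holds genes that fell in colon tuft cells, with Prkcb and Cnih3 under 0.5 CPM in each colon library, and the lower row genes that rose.

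Hox genes mark position along the body: their order on the chromosome follows the order of the regions where they are used, with high paralog numbers at the posterior end. Of 25 Hox genes tested (of 39 in the files), 18 were higher and 1 lower in colon tuft cells. Their median log2 ratio was 5.10, or 4.98 with genes at 0 in a group set at the 3-read limit. Paralog 13 genes were present in the colon in every library. Hoxb13 (ENSMUSG00000049604, chromosome 11, 96194316 to 96197447) was at 31, 41.1, 82.6 and 54.6 CPM in colon tuft, against 0.227, 0.0458 and 0.157 CPM in small intestine tuft (log2 ratio 8.47 ± 0.56, edgeR adjusted p = 1.18e-06). Hoxa13 was at 52.2, 54.8, 38.7 and 28.8 CPM in colon tuft and at 0.0229 to 0.269 CPM in small intestine tuft. Hoxd13 was at 10.1, 12.3, 10.8 and 8.33 CPM in colon tuft, and 1 read of it was counted in the 3 small intestine tuft libraries together. Hoxa11, Hoxd4 and Hoxd11 had 0 reads in small intestine tuft, which allows up to 0.0219 CPM over that group, and averaged under 3 CPM in colon tuft. Hoxb9 was at 42.2 to 53.1 CPM in colon tuft and at 0.0229 to 0.31 CPM in small intestine tuft.

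Among genes of low paralog number, Hoxa3 was at 68.9, 48.1, 68.6 and 56.6 CPM in colon tuft and at 7.42, 10.2 and 11.9 CPM in small intestine tuft (log2 ratio 2.62 ± 0.24). Hoxa4 had a log2 ratio of -1.02 and did not pass. Hoxb1 was the member that was lower, with 1 read in the 4 colon tuft libraries together, against 1.82, 1.72 and 0.671 CPM in small intestine tuft. In non-tuft cells the Hox genes summed to 6.03 to 7.27 CPM, against 422 to 492 CPM in colon tuft and 35.7 to 45.5 CPM in small intestine tuft. Ttll6, a tubulin polyglutamylase that lies beside the Hoxb cluster (ENSMUSG00000038756, chromosome 11, 96133786 to 96165451), was at 101, 84.6, 70.3 and 65 CPM in colon tuft, against 0.393, 0.183 and 0.112 CPM in small intestine tuft (log2 ratio 8.42 ± 0.41).

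**Figure D4:**
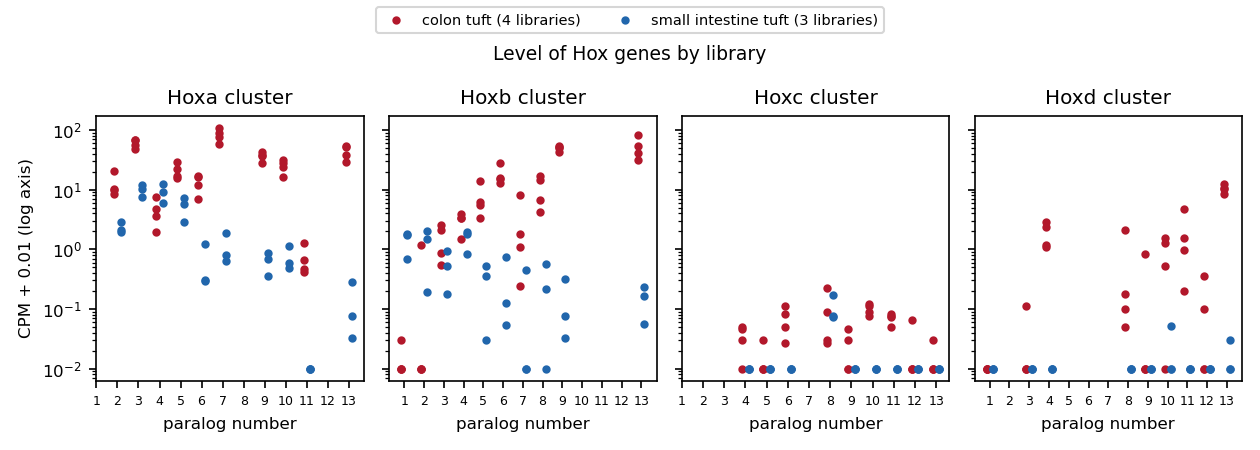
Level of Hox genes in the 4 colon tuft and 3 small intestine tuft libraries, by cluster and paralog number, as CPM plus 0.01 on a log axis, so that a point at 0.01 is a library with 0 reads. Paralogs 9 and 13 of Hoxa and Hoxb lie above 20 CPM in each colon library and under 1 CPM in each small intestine library.

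Other transcription factors of gut position were split. Of 30 tested, 10 fell and 4 rose. Gata4, which sets the identity of the upper small intestine (ENSMUSG00000021944, chromosome 14, 63198922 to 63271692), was at 1.73, 1.44, 0.959 and 0.417 CPM in colon tuft, against 158, 119 and 90.4 CPM in small intestine tuft (log2 ratio -6.76 ± 0.43, edgeR adjusted p = 8.78e-07). Onecut2 was at 2.32 to 3.34 CPM in colon tuft and 306 to 424 CPM in small intestine tuft, and Pdx1 and Gata5 had log2 ratios of -6.76 and -4.32. Foxd2 and the neighbouring transcript Foxd2os, which do not overlap in the annotation used here, rose by 8.26 and 8.16 on the log2 scale. The general intestinal factors Cdx1, Cdx2, Gata6 and Hnf4a did not pass: Cdx1, for example, was at 94.5 to 122 CPM in colon tuft and 87.7 to 108 CPM in small intestine tuft. Epcam, the gate antigen, was at 1236 to 1494 CPM in colon tuft and 1265 to 1402 CPM in small intestine tuft (log2 ratio -0.02 ± 0.13).

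Most genes of digestion and absorption were lower in colon tuft cells. Of 20 digestive enzyme genes tested, 17 fell and 2 rose (median log2 ratio -5.53), of 26 lipid absorption genes 20 fell and 2 rose (median -4.14), and of 33 nutrient transporter genes 21 fell and 6 rose (median -2.15). Of the digestive and lipid genes, 39 averaged 20 CPM or more in small intestine tuft. Their level in colon libraries 1 to 4 was, at the median, 2.34, 3.03, 1.73 and 2.1% of the small intestine tuft mean. Summed over the whole list, digestive enzyme genes were at 1031 to 1237 CPM in colon tuft and 10991 to 13383 CPM in small intestine tuft. Lipid absorption genes summed to 1401 to 1749 CPM in colon tuft and 23232 to 29714 CPM in small intestine tuft. For nutrient transporter genes the sums were 1700 to 1888 CPM and 3870 to 4302 CPM. The lactase gene Lct (ENSMUSG00000026354; chromosome 1, 128284756 to 128328318) was at 3.22, 2.33, 2.02 and 0.181 CPM in colon tuft, against 563, 573 and 678 CPM in small intestine tuft and 398 CPM in non-tuft cells. Its promoter is shown because GATA4, whose gene fell in the same libraries, is a known activator of lactase in the mouse. The motif AGATAA, searched on both strands, is in capitals and appears as TTATCT where it lies on the other strand.
Lct, chr1:128328269-128328568, minus strand, read in the direction of the gene: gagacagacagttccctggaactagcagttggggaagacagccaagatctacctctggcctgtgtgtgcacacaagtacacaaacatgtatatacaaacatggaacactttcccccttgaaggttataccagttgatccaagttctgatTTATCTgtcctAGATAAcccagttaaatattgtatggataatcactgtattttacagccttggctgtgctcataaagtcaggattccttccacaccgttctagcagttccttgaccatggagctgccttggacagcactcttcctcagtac
The motif began 90 bases before the start on the strand of the gene and 101 bases before it on the other strand. It stood in 11.4% of all promoter windows, in 6.83% of those of genes tested, in 6.5% of those of genes called higher and in 10.8% of those of genes called lower. Among digestive enzyme genes, 4 of 16 windows held it (Dpp4, Ggt1, Lct and Mgam). So did 3 of 20 windows of lipid absorption genes, 5 of 39 of tuft core genes and 5 of 30 of blood cell signalling genes. Here too, a match does not show binding.

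The apolipoprotein genes Apoa1, Apoa4 and Apoc3, neighbours on chromosome 9 that encode proteins of lipid particles, fell together. Apoa1 was at 30, 26.7, 28.9 and 5.85 CPM in colon tuft, against 3665, 6557 and 7995 CPM in small intestine tuft, and Apoa4 was at 7.08 to 31.2 CPM in colon tuft, against 4253 to 6422 CPM in small intestine tuft. Their log2 ratios were -8.05 ± 0.57, -7.95 ± 0.47 and -7.94 ± 0.34. Colon library 4 was the lowest for each. Fabp1, a fatty acid binding protein, was at 40.6, 61.8, 68.3 and 71.1 CPM in colon tuft and at 5864, 4416 and 5153 CPM in small intestine tuft, where non-tuft cells had 1091 CPM. Slc2a2, the glucose carrier GLUT2, was at 0.145 to 0.557 CPM in colon tuft and 90.9 to 138 CPM in small intestine tuft. Otop3, a proton channel, Slc28a1, a nucleoside transporter, Akp3, an intestinal alkaline phosphatase, and Dao, an oxidase of D-amino acids, had log2 ratios of -8.09, -8.01, -8.34 and -8.28. Members went the other way too: Mep1a, a meprin protease, rose by 2.45 while its partner Mep1b fell by 2.19 on the log2 scale.

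Of 35 drug-metabolising genes tested, 21 fell and 4 rose. The named cytochrome P450 genes Cyp2b10 and Cyp2c29, the retinol dehydrogenase gene Rdh7 and the sulfotransferase gene Sult6b2 had log2 ratios between -8.18 and -8.06. Cyp2d34 was at 52.7 to 108 CPM in colon tuft and 0.114 to 0.475 CPM in small intestine tuft. These belong to families of near-identical genes, so the split of reads among them is uncertain. Cyp2c55 was at 1452, 795, 847 and 1306 CPM in colon tuft, against 175, 134 and 106 CPM in small intestine tuft. Among 9 genes of bile acid handling, Nr0b2, Abcc2, Slc51a and Slc51b fell and Nr1h4, Slc10a2 and Fabp6 rose. The call of Fabp6 was lost without colon library 3 (edgeR adjusted p = 0.0633) or without small intestine library 2 (0.0678) or 4 (0.0509), and that of Slc51b without small intestine library 2 (0.107). Nr1h4, the bile acid receptor FXR, was at 36.4 to 80.3 CPM in colon tuft and 20.3 to 24.7 CPM in small intestine tuft, and its known target Nr0b2 at 0 to 0.0181 CPM in colon tuft and 0.868 to 6.02 CPM in small intestine tuft.

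Transport genes of colonocytes, the absorptive cells of the colon, were higher in the colon tuft libraries. Of 21 colonocyte genes tested, 19 rose and 0 fell, with a median log2 ratio of 3.68, and Slc9a3 and Scnn1b did not pass, although Slc9a3 did without small intestine library 4 (edgeR adjusted p = 0.0286) and Scnn1b without colon library 2 (0.0369). The amino acid transporter gene Slc6a14 (ENSMUSG00000031089, chromosome X, 21714896 to 21742355) was at 158, 130, 128 and 189 CPM in colon tuft, at 0.785, 0.16 and 0.179 CPM in small intestine tuft and at 0.474 CPM in small intestine non-tuft cells (log2 ratio 8.62 ± 0.51, edgeR adjusted p = 4.99e-07). Car1, a carbonic anhydrase, was at 1264, 690, 517 and 719 CPM in colon tuft, against 5.5, 1.08 and 1.9 CPM in small intestine tuft. Slc5a8, a carrier of short-chain fatty acids, was at 101, 90, 97.2 and 65.7 CPM in colon tuft and at 0.137 to 0.604 CPM in small intestine tuft. Aqp8 and Aqp4, water channels, Atp12a, the colonic proton pump, and Slc26a3, the chloride and bicarbonate exchanger, rose by 4.21, 4.39, 5.96 and 2.37 on the log2 scale. Without colon non-tuft libraries, what share of these reads came from tuft cells was not tested.

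**Figure D5:**
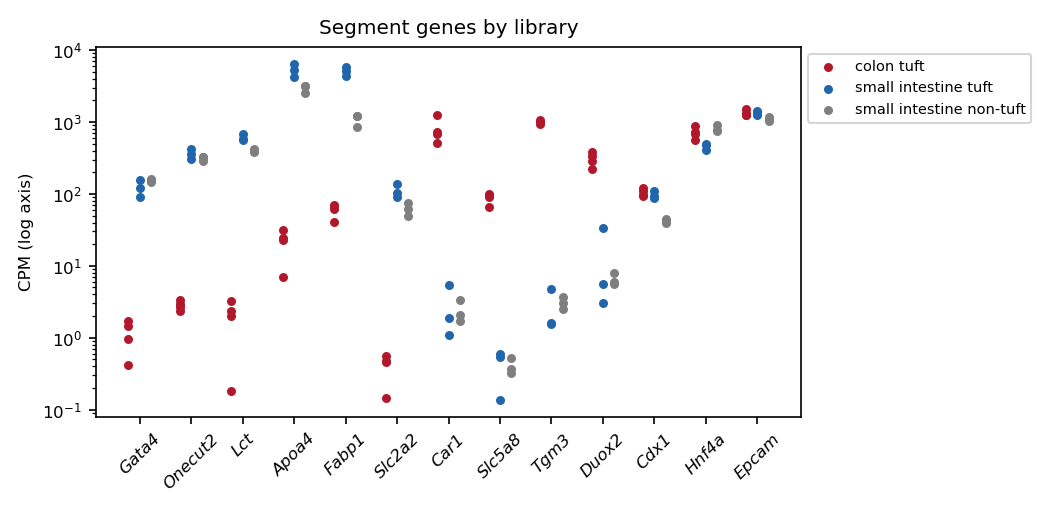
CPM on a log axis of 13 segment and epithelial genes in each colon tuft, small intestine tuft and small intestine non-tuft library. Gata4, Onecut2 and the absorption genes are high in both small intestine groups, Car1, Slc5a8, Tgm3 and Duox2 are high in colon tuft, and Cdx1, Hnf4a and Epcam lie close together in both tuft groups.

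Mucosal defence genes followed the organ as well. Of 23 tested, 14 rose and 4 fell, with a median log2 ratio of 3.65. Mptx1, a mucosal pentraxin (ENSMUSG00000026531, chromosome 1, 174330518 to 174332873), had the largest increase of all genes ranked, which averaged 20 CPM or more in the higher group. It was at 68.6, 159, 128 and 167 CPM in colon tuft, against 0.496, 0.114 and 0.268 CPM in small intestine tuft (log2 ratio 8.77 ± 0.51, edgeR adjusted p = 4.92e-07). Outside the ranking, members of the Hox, keratin and colonocyte lists had log2 ratios up to 10.06, 9.30 and 8.98. Tgm3, a transglutaminase (ENSMUSG00000027401, chromosome 2, 130012349 to 130050399), was at 1005, 946, 976 and 1073 CPM in colon tuft and at 4.71, 1.56 and 1.59 CPM in small intestine tuft. Lpo, a peroxidase, was at 15.6 to 37.5 CPM in colon tuft and 0.0229 to 0.145 CPM in small intestine tuft. Duox2, which makes the hydrogen peroxide that such peroxidases use, was at 335, 225, 378 and 284 CPM in colon tuft and at 3.08, 5.56 and 33.1 CPM in small intestine tuft, with library 4 above the others (log2 ratio 4.46 ± 0.73). The gasdermin genes Gsdmc2, Gsdmc3 and Gsdmc4, which are close copies, rose by 5.88, 7.33 and 5.46 on the log2 scale. The 4 that fell were the lectin genes Reg1, Reg3a, Reg3b and Reg3g. The call of Reg3b was lost without colon library 1 or 3 or small intestine library 2 or 4 (edgeR adjusted p from 0.0538 to 0.112). Reg1 was at 0.417 to 4.97 CPM in colon tuft and 577 to 1012 CPM in small intestine tuft. Other named increases were Arhgap20, a GTPase regulator, at 23.2 to 62.2 CPM in colon tuft and 0.0224 to 0.186 CPM in small intestine tuft, Thbs4, a thrombospondin, at 144 to 227 CPM in colon tuft and 0.229 to 0.888 CPM in small intestine tuft, and Ly6g, at 14 to 33.2 CPM in colon tuft and 0.0447 to 0.103 CPM in small intestine tuft.

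Glycosylation genes, which build the sugar chains of mucins and lipids, rose in 13 and fell in 4 of 27 tested, or rose in 6 with all 18 tuft libraries in the fit. B3galt5, a galactosyltransferase, was at 143, 152, 154 and 150 CPM in colon tuft, against 4.15, 4.1 and 2.93 CPM in small intestine tuft (log2 ratio 5.33 ± 0.20). B3gnt5, which starts a glycolipid chain, was at 23.5 to 28.4 CPM in colon tuft and at 0.103 to 0.389 CPM in small intestine tuft, and B3gnt6, the core 3 enzyme of mucin chains, was at 19.9 to 40.8 CPM in colon tuft and 7.28 to 15.1 CPM in small intestine tuft. Gcnt1, Gcnt4, Gal3st2 and St3gal4 fell. Of 9 mucins, 5 rose and 0 fell: Muc1, Muc2, Muc3, Muc3a and Muc4 rose, of which Muc3 and Muc3a are close copies. Without small intestine library 4, 1 fell. Muc1, a membrane mucin, was at 7.19 to 24.2 CPM in colon tuft and 3.55 to 7.87 CPM in small intestine tuft, against 1.12 CPM in non-tuft cells, a call that was lost without any 1 of the libraries other than colon 1 and 3 (edgeR adjusted p from 0.0601 to 0.125).

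The cytoskeleton and junctions differed by member. Krt18, a keratin that is high in tuft cells, was at 2674, 2526, 2037 and 3507 CPM in colon tuft and at 13581, 12087 and 12498 CPM in small intestine tuft (log2 ratio -2.24 ± 0.18), while Krt19 and Krt7 rose by 1.60 and 2.30 on the log2 scale. Krt36 was at 7.68 to 24.6 CPM in colon tuft and 0 to 0.062 CPM in small intestine tuft. In all, 6 of 10 keratins rose and 2 fell. Of 20 claudin and junction genes, 7 rose and 1 fell. The 1 that fell was Cldn18, a claudin of the stomach, at 0, 0.0199, 0.0165 and 0.0362 CPM in colon tuft, at 7.29, 11.1 and 8.12 CPM in small intestine tuft and at 0.0469 CPM in non-tuft cells. Without colon library 1 or small intestine library 4, 2 of the 20 fell. Cldn2, Cldn4, Cldn8 and Cldn23 rose, Cldn2 at 366, 261, 277 and 214 CPM in colon tuft, against 58.7, 48.6 and 44.7 CPM in small intestine tuft.

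Of 25 cytokine and receptor genes, 7 rose and 7 fell, or 1 and 2 with all 18 tuft libraries in the fit. Ccl25, the chemokine that draws lymphocytes to the small intestine, was at 6.33, 10.2, 9.93 and 6 CPM in colon tuft, against 328, 349 and 360 CPM in small intestine tuft (log2 ratio -5.41 ± 0.23). Ccl28, a chemokine of the colon and other mucosae, was at 145, 113, 86 and 102 CPM in colon tuft, against 27, 15.7 and 13.7 CPM in small intestine tuft (log2 ratio 2.57 ± 0.28). Tslp, an epithelial cytokine of type 2 immunity, was at 0.149 to 0.616 CPM in colon tuft, at 6.34 to 10.6 CPM in small intestine tuft and at 0.132 CPM in non-tuft cells (log2 ratio -4.45 ± 0.61). The receptor genes Il4ra and Il13ra1, through which tuft cell numbers are known to expand, did not pass, with log2 ratios of -0.59 and -0.45. Genes of MHC class II rose in 4 and fell in 0 of 8, among them Cd74 at 129, 479, 184 and 122 CPM in colon tuft, against 33.5, 6.36 and 9.62 CPM in small intestine tuft. Colon library 2 was the highest for Cd74. Of 30 interferon-stimulated genes, 2 rose and 4 fell, or 7 fell without colon library 4.

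Markers of other cells and states moved between the organs, and their part in the differences above was not tested. Of 17 goblet markers, 9 rose and 3 fell. Muc2 was at 6286, 4048, 3974 and 4643 CPM in colon tuft, at 589, 692 and 662 CPM in small intestine tuft and at 26738 CPM in non-tuft cells, while Tff3, Zg16 and Fcgbp, goblet products too, fell by 1.34, 1.18 and 1.06 on the log2 scale, the last by 0.90 without small intestine library 4. Summed, the goblet markers were at 6917 to 9214 CPM in colon tuft, 2129 to 2529 CPM in small intestine tuft and 94345 to 102557 CPM in non-tuft cells. Enteroendocrine markers fell in 10 and rose in 3 of 25, summing to 209 to 375 CPM in colon tuft, 494 to 1238 CPM in small intestine tuft and 10274 to 14575 CPM in non-tuft cells. The hormones of the upper gut Gip, Cck and Sct fell, and Gcg, Pyy and Insl5 rose, with Insl5 at 2.11 to 16.8 CPM in colon tuft and 0 to 1.05 CPM in small intestine tuft. Without small intestine library 3, 6 fell, and without library 4, 1 rose: the calls of Gcg (edgeR adjusted p = 0.0521) and Insl5 (0.0613) were then lost. Gcg also missed the threshold without library 2 (0.0504), and Insl5 without library 3 (0.0856) or colon library 4 (0.0724). Paneth markers fell in 5 of 9 and rose in 0, a count that was 2 without small intestine library 2 and 2 without library 4.

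Of 30 proliferation genes, 16 rose and 0 fell, with a summed level of 1448 to 2001 CPM in colon tuft, 688 to 974 CPM in small intestine tuft and 2554 to 3328 CPM in non-tuft cells. Mki67 was at 625, 668, 596 and 404 CPM in colon tuft, against 256, 199 and 149 CPM in small intestine tuft (log2 ratio 1.51 ± 0.22). With all 18 tuft libraries in the fit, 0 of the 30 rose. Stem cell and Wnt genes rose in 7 and fell in 1 of 14. Lrig1 and Ephb3 rose by 2.36 and 2.06 on the log2 scale, Olfm4 was at 0.417 to 3.81 CPM in colon tuft and 50.8 to 88 CPM in small intestine tuft, and Lgr5, at a log2 ratio of -0.79, was called lower when colon library 1 was left out (-1.04). The count of stem cell genes that fell was then 2. Immediate early and heat shock genes known to respond to dissociation rose in 16 and fell in 1 of 26, or in 0 without colon library 1 or 4 or small intestine library 2 or 3. Fos was at 1209, 1197, 1063 and 1108 CPM in colon tuft, against 302, 266 and 286 CPM in small intestine tuft, and Nr4a1 at 469 to 640 CPM in colon tuft and 22.1 to 37.7 CPM in small intestine tuft (log2 ratio 4.27 ± 0.24). The heat shock genes Hspa1a and Hspa1b did not pass, with log2 ratios of -0.34 and -0.35. Mitochondrial transcripts were lower in 5 of 8, a count that was 1 without small intestine library 2 and 3 without colon library 3 or 4. Nuclear genes of the respiratory chain were lower in 13 of 50 and higher in 0, with a median log2 ratio of -0.67, and lower in 7 without colon library 1 and 8 without small intestine library 2.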

How the data were processed

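The files as deposited give raw read counts for each gene, whole numbers without normalization, for 43432 identifiers in each library. STAR, DESeq2 and GRCm38 are named, per the submitters' processing notes; the sources used here give no versions, annotation, counting step or use of strand. RNA was captured on oligo(dT) beads, amplified with NuGEN Ovation V2, which adds no molecular identifiers, and built into libraries with Nextera XT, per the labels' protocols, so limits drawn from counts cover counting error only. Symbols and coordinates came from GENCODE M21: 42462 identifiers matched, and the 970 others held 0.12% of counts.

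After filterByExpr and TMM scaling, a two-sided quasi-likelihood F test was run in edgeR 4.0.16 (R 4.3.3) over the 7 tuft libraries, with no covariate and Benjamini-Hochberg adjustment. A gene was called, and is said to rise or fall, where the adjusted p was below 0.05 and the log2 ratio 1 or more in size. Approximate standard errors were had by dividing the log2 ratio by the root of the F statistic. Non-tuft levels were brought to the same scale by 1 factor. Levels are not per length and are compared within a gene. Each library came from 1 mouse, per the labels, which do not say whether libraries of different organs shared a mouse. No 2 replicates agreed within sampling noise. The deviations of equally numbered libraries of both organs correlated at 0.0369, 0.00364 and 0.00769. The numbers were not taken as pairs in the main fit, though correlations over so few libraries cannot exclude a shared mouse.

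The libraries, gene lists and the rule for named genes were chosen with earlier results of these data known. The rule ranked called genes whose libraries did not overlap and whose higher group averaged 20 CPM or more, and took the 15 largest changes in each direction, without predicted, Y-linked or antigen receptor genes and Xist; list members could be named beside their list's count. Some list members are counted but not reported here by name. On simulated counts with 200 genes changed and 15205 tested, the fit called 10% of genes changed 2-fold and 57% of those changed 4-fold. Of its 72 calls, 5 were of unchanged genes. Far fewer genes changed there than were called in the data, which makes the adjustment stricter, so these shares do not carry over. A call also needs an estimate of 2-fold or more, which a true 2-fold change does not always reach. Alternatives were other scalings and filters, DESeq2 1.42.0, limma 3.58.1, all 18 tuft libraries, a replicate block and leaving out each library. Promoter windows are RefSeq's (GRCm38.p6); Python 3.11.15, pandas 2.3.3 and matplotlib 3.10.9 made the tables and plots.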

Additional observations from a re-analysis of the deposited data

Results flagged for a closer look

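By the critical value of Dixon's gap test, 1 of the 4 colon tuft libraries lay far from the others in 12 of the 185 genes named. Chance flags about 1 in 20 such groups of normally distributed values, a rate that need not hold for levels near 0. A gene with reads in only 1 colon library, as Cnih3 and Hoxb1, is flagged whatever its level. Colon library 4 was set apart at the low end for the small intestine genes Apoa1 (5.85 CPM, next 26.7), Slc28a1 (0.0362 CPM, next 0.339) and Cyp2b10 (0.0181 CPM, next 0.997), and at the high end for Cd3e (0.543 CPM) and Reg3a (1.79 CPM). Colon library 2 was high for the gasdermin genes Gsdmc2 (165 CPM) and Gsdmc4 (375 CPM), for Hpgds (59.6 CPM) and for Hoxb1, whose only colon read it held (0.0199 CPM), and low for Muc3 (2411 CPM). Colon library 1 held every colon read of Cnih3 (0.206 CPM). Colon library 3 was low for Ptger4 (42 CPM, next 79.6). The groups of 3 small intestine tuft libraries are too small for this check.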

How the results depend on the processing

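Against the 2118 genes higher and 1769 lower, all 18 tuft libraries gave 885 and 775, of which 809 and 745 were shared with the fit of 7 libraries. The count without 1 library ranged from 1745 to 2053 higher and from 1487 to 1779 lower. The other alternatives stayed within 1.5 times: 2129 and 1757 with RLE size factors, 2118 and 1767 without mitochondrial transcripts, 2194 and 1857 with no filter, 1561 and 1475 at 5 CPM in 3 libraries, 2403 and 1884 in DESeq2, and 2227 and 2040 in limma. A replicate block gave 1924 and 1662, and the labels do not say what the replicate numbers mark. The median log2 ratio of all genes tested moved by no more than 0.1 under another scaling. No gene named in the text reversed its call in any alternative. Of 185 named genes, the 18-library fit lost 35 calls and DESeq2 lost 0. Limma lost 3, those of Scgb1a1 (adjusted p 0.37), Bpifa1 (0.359) and Slc51b (log2 ratio -0.99), and leaving out 1 library lost 2 to 7. The unfiltered fit lost the call of Plcb2, and the block lost those of Scgb1a1, Bpifa1, Plcb2 and Insl5. Of 72 counts of list members, 29 moved by over 1.5 times with 18 libraries, and 0 to 9 under each other alternative. With 4 and 3 libraries, changes near 2-fold were often missed in the simulation. Genes under about 1 CPM rest on few reads, and amplification without molecular identifiers adds error that counts do not show.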
